A study of Mus musculus with 43 samples.

Results

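The genes described here are the 7 class 3 semaphorins of the mouse (Sema3a to Sema3g) and 3 of their receptors, the neuropilins Nrp1 and Nrp2 and the plexin Plxna4, measured in 43 RNA-seq libraries of purified cortical glia. They were chosen by name, as 10 of the 55416 genes in the deposited count tables, and each of them has a row in the table of every library. Sema3b had been reported as higher in oligodendrocytes of Rag2-/- mice, and that contrast was in view when the genes were chosen, so the values of all 10 genes in Rag2-/- against control oligodendrocytes are given as a description without a test. Levels across cell types, the other genotype contrasts and the contrasts of sex were not used in the choice and were tested. Sema3b in control oligodendrocytes is part of the contrast in view and was still among the values tested across cell types.

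Class 3 semaphorins are the secreted members of the semaphorin family of guidance cues. Most of them bind a neuropilin, which holds the ligand, and signal through an A-type plexin, whose intracellular part acts on small GTPases and the cytoskeleton; Sema3e instead binds the plexin Plxnd1 directly. They repel or attract growing axons, and Sema3a and Sema3f are also known as cues for the migration of oligodendrocyte precursor cells (OPCs), the dividing cells from which myelinating oligodendrocytes arise.

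Rag2 encodes part of the recombinase that assembles antigen receptor genes, so Rag2-/- mice lack mature T and B cells. The mice carried the Rag2 tm1.1Cgn allele of the line B6.Cg-Rag2 tm1.1Cgn/J, crossed to C57BL/6J, and were 3 months old. Rag2-/- mice were compared with immunocompetent littermates kept in the same environment, which were Rag2 +/- in littermate pairs 1, 2, 3 and 5 and Rag2 +/+ in pairs 4 and 6. Both mice of a pair had the same sex (male in pairs 1, 3 and 4, female in pairs 2 and 5) except in pair 6, where the control was male and the Rag2-/- mouse female. Microglia, OPCs, oligodendrocytes and astrocytes were taken in that order from 1 suspension of cortical cells by immunopanning, in which cells bind to dishes coated with an antibody, here against CD45, PDGFRα, GalC and HepaCAM. CD45 is not particular to microglia, so peripheral macrophages left in the brain after perfusion may be among the cells of that dish. There were 6 control and 6 Rag2-/- libraries of microglia and of astrocytes, 6 and 5 of OPCs, and 4 and 4 of oligodendrocytes (pairs 1, 3, 5 and 6).

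Libraries held 6499417 to 23118497 read pairs counted on genes (median 10447042). Genes encoded by the mitochondrion took 6.75% to 11.7% of them in microglia, 22.4% to 36.7% in OPCs, 22.5% to 45.1% in astrocytes and 45.8% to 60.1% in oligodendrocytes. Each cell type carried its own markers: the summed level of 7 oligodendrocyte markers was at least 27042 CPM in oligodendrocyte libraries and at most 6421 elsewhere, and that of 8 microglial markers was at least 8120 CPM in microglia and at most 1213 elsewhere. Levels are in normalized CPM (gene counts scaled to a common library size by TMM factors over all 43 libraries). Rag2 itself had no count in any Rag2-/- library and at most 4 in any control library, with no count in most of those, so its level hardly checks the labels. The overlapping gene Iftap had 14 to 208 counts in every control library and 0 to 2 in every Rag2-/- library. All libraries of a cell type were pooled on the same lane, and an effect of the lane cannot be told apart from one of the cell type. In bulk samples such as these, fewer cells of a type and less RNA per cell cannot be told apart either. The count setting for strand is not given in the sources used here, and 3.18% of the exonic length of Nrp2, 0.754% of that of Plxna4 and 0.525% of that of Nrp1 overlap other counted genes.

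Ligands and receptors had their highest levels in different glia. Sema3d, Sema3e and Sema3a were higher in oligodendrocytes and OPCs than in astrocytes and microglia, with Sema3d highest in OPCs. All 3 receptors were highest in microglia, which held little of any ligand, and Nrp2 and Plxna4 were present in the oligodendrocyte lineage as well. Of 32 differences between cell types called in control mice at an adjusted p of 0.05, 31 had the same direction in the Rag2-/- mice, which are other animals, and 29 were called there again. How often this holds over all genes was not measured. The contrasts share genes and libraries, so the 32 are not separate results.

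**Figure D1:**
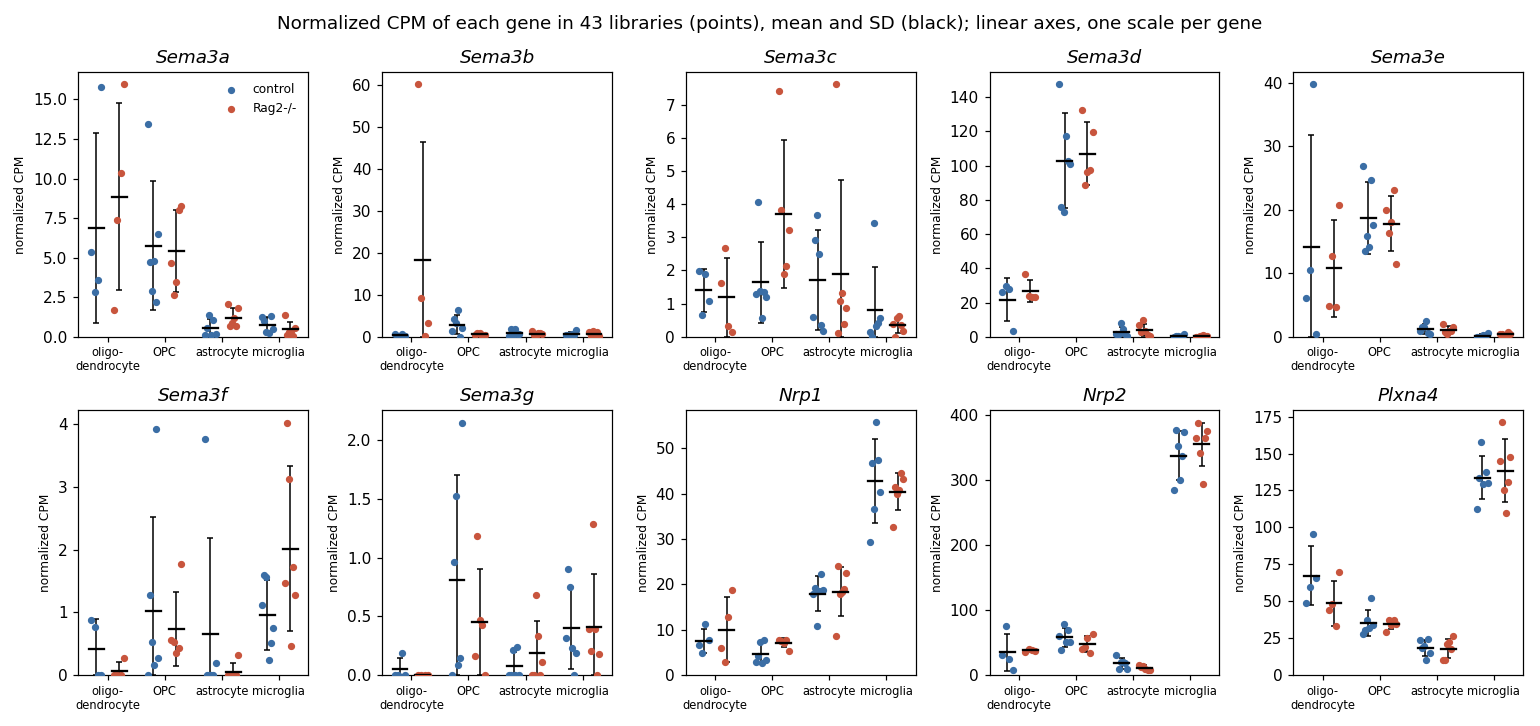
Normalized CPM of the 10 genes in every library (points, linear axes with one scale per gene) for each cell type, control in blue and Rag2-/- in red, with the mean and SD of each group in black (bars are drawn no lower than 0). Sema3d stands between 73.0 and 147 CPM in OPCs, Nrp2 between 285 and 388 CPM in microglia, and Sema3b in oligodendrocytes has 1 library at 60.2 CPM.

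Sema3d, a ligand that signals through neuropilin and plexin receptors in the nervous and vascular systems, was the most abundant ligand of OPCs. In control OPCs its level was 147, 75.6, 73.0, 117, 103 and 101 CPM in pairs 1 to 6, and in Rag2-/- OPCs it was 133, 88.6, 96.4, 97.4 and 119.9 CPM in pairs 1, 2, 3, 4 and 6. In control oligodendrocytes it was 26.0, 29.7, 27.8 and 3.37 CPM in pairs 1, 3, 5 and 6. Every OPC library was above every oligodendrocyte library. Control astrocytes held 0.662 to 7.90 CPM (median 1.58), control microglia 0 to 1.81 (median 0.287), and 4 of the 12 microglial libraries had no count. In control mice Sema3d was lower in oligodendrocytes than in OPCs by 2.20 on the log2 scale (SE 0.61, edgeR quasi-likelihood test with Benjamini-Hochberg adjustment over all genes, adjusted p = 0.00979). It was higher in OPCs than in astrocytes by 5.10 (SE 0.61, adjusted p = 6.40e-07) and than in microglia by 7.46 (SE 0.71, adjusted p = 3.21e-09).

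Sema3e, the ligand of Plxnd1, held 13.5 to 26.9 CPM in control OPCs (median 16.7) and 11.5 to 23.1 in Rag2-/- OPCs (median 18.05). In control oligodendrocytes it was 6.10, 10.6, 39.8 and 0.459 CPM in pairs 1, 3, 5 and 6, and in Rag2-/- oligodendrocytes 4.82, 12.8, 4.71 and 20.8 CPM. Oligodendrocyte libraries spread from below the OPC range to above it, and the difference between the 2 cell types in control mice was -0.58 on the log2 scale (95% confidence interval -2.01 to 0.85, adjusted p = 0.572). Above astrocytes, Sema3e stood 3.85 higher in control OPCs (SE 0.68, adjusted p = 0.000116) and 3.27 higher in control oligodendrocytes (SE 0.73, adjusted p = 0.00106).

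Sema3a, the founding repellent of the class, was 5.35, 2.84, 3.60 and 15.8 CPM in control oligodendrocytes of pairs 1, 3, 5 and 6 and 2.21 to 13.5 CPM in control OPCs (median 4.74). These ranges overlapped (log2 difference 0.30, 95% confidence interval -1.07 to 1.67). Astrocytes and microglia of either genotype held at most 2.04 CPM. The control difference to astrocytes was 3.55 for oligodendrocytes (SE 0.74, adjusted p = 0.000540) and 3.25 for OPCs (SE 0.69, adjusted p = 0.000757).

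Sema3a, Sema3c, Sema3d and Sema3e lie in 1 region of chromosome 5, between chr5:12433124 and chr5:17935648 in GRCm39, the build of the counts, and Sema3b and Sema3f lie together on chromosome 9. Promoter sequences were looked at for the 3 ligands that were high together in the oligodendrocyte lineage. They run from 250 bases before to 50 bases after the start of the gene in RefSeq (GRCm38.p6, an older build than that of the counts), on the plus strand, at chr5:13396534-13396833 for Sema3a, chr5:12382916-12383215 for Sema3d and chr5:14025026-14025325 for Sema3e. Capitals mark ACAAAG and ACAATG, cores bound by SOX proteins, or their reverse complements CTTTGT and CATTGT.
Sema3a: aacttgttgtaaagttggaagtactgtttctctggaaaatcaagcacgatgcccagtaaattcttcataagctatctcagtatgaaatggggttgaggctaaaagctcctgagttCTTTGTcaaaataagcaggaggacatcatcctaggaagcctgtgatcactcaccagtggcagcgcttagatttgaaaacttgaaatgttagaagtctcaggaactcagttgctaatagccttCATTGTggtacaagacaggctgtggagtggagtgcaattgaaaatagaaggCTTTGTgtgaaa
Sema3d: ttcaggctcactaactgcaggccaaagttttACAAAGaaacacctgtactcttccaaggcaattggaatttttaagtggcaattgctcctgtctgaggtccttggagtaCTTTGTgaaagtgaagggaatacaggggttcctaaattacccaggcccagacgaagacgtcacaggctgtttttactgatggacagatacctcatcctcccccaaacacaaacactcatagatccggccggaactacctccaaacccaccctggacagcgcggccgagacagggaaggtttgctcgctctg
Sema3e: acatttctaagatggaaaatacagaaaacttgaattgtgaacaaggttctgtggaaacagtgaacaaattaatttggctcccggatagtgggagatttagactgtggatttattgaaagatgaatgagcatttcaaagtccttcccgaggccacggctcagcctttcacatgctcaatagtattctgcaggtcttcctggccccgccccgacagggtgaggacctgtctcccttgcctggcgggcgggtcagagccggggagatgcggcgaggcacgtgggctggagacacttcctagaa

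Sema3a held 3 such matches and Sema3d 2, and Sema3e held none. In GRCm39 the counted genes begin at chr5:13175288 (Sema3a), chr5:12433124 (Sema3d) and chr5:14075290 (Sema3e). The RefSeq start used for Sema3a lies inside the counted gene, so its 3 matches are not at the outer start of that gene. Among 32851 promoters of this length in the table, 28.6% held at least 1 match and 5.59% held 2 or more. Sema3c had 1 match, and the promoters of Nrp1, Nrp2 and Sema3g had none, so 3 of the 7 members in the table held a match. Promoters of Sema3b, Sema3f and Plxna4 were not analysed here. A match is a run of letters and was not tested as a binding site.

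The other 4 ligands were low in control mice. Sema3c, a ligand that can attract as well as repel, had a mean of 1.71 CPM in control astrocytes, 1.64 in control OPCs, 1.40 in control oligodendrocytes and 0.813 in control microglia, and neighbours in that order overlapped. Sema3f, a repellent ligand that prefers Nrp2, was 0.234 to 1.60 CPM in control microglia and at 0 in 9 of 12 astrocyte and 5 of 8 oligodendrocyte libraries. Sema3g, known from vessel walls, had 1 count in all 8 oligodendrocyte libraries together and at most 2.15 CPM in any library. Sema3b, which can be cut by furin-type proteases, had at most 0.622 CPM in control oligodendrocytes and 0 to 6.35 CPM in control OPCs (median 2.75).

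Nrp2, the neuropilin that prefers Sema3f and also binds VEGF family members, was the most abundant receptor. Its level was 285, 377, 352, 299.97, 338 and 375 CPM in control microglia of pairs 1 to 6 and 366, 388, 342, 294, 366 and 377 CPM in Rag2-/- microglia. No library of another cell type exceeded 79.0 CPM. Control OPCs held 38.5 to 79.0 CPM (median 55.6), control oligodendrocytes 31.2, 75.5, 24.8 and 7.65 CPM in pairs 1, 3, 5 and 6, and control astrocytes 8.70 to 30.6 CPM (median 19.5). Against microglia, Nrp2 was lower by 2.62 on the log2 scale in control OPCs (SE 0.36, adjusted p = 1.01e-06), by 3.35 in oligodendrocytes (SE 0.44, adjusted p = 7.01e-07) and by 4.28 in astrocytes (SE 0.39, adjusted p = 1.30e-09).

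Plxna4, an A-type plexin that passes on Sema3a signals with Nrp1, was 113, 134, 158, 129.6, 138 and 130.0 CPM in control microglia of pairs 1 to 6. Control oligodendrocytes came next, with 48.7, 59.5, 95.4 and 66.0 CPM in pairs 1, 3, 5 and 6, then control OPCs with 27.6 to 52.0 CPM and control astrocytes with 10.3 to 24.1 CPM. The ranges of oligodendrocytes and OPCs overlapped, and the other neighbours in this order did not. Plxna4 was lower than in microglia by 1.03 in oligodendrocytes (SE 0.21, adjusted p = 0.000219), by 2.00 in OPCs (SE 0.19, adjusted p = 3.11e-09) and by 2.90 in astrocytes (SE 0.20, adjusted p = 8.63e-12). Oligodendrocytes exceeded OPCs by 0.96 in control mice (SE 0.20, adjusted p = 0.00102) and by 0.49 in Rag2-/- mice (adjusted p = 0.140). With libraries scaled by their total counts alone it was -0.15 in control mice, where the median over all genes went from -0.14 to -1.21, so Plxna4 stayed above the median gene under both scalings.

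Nrp1, the neuropilin that prefers Sema3a and a co-receptor of VEGF, was highest in microglia too, with 29.4, 46.9, 36.6, 55.8, 47.5 and 40.3 CPM in controls of pairs 1 to 6. Unlike Nrp2 and Plxna4 it was second in astrocytes, at 10.7 to 22.3 CPM (median 18.7) in controls, above 4.90 to 11.2 CPM in control oligodendrocytes and 2.64 to 7.84 CPM in control OPCs. Microglia and astrocytes did not overlap, and astrocytes, oligodendrocytes and OPCs overlapped with their neighbours. In control mice Nrp1 was lower than in astrocytes by 1.98 in OPCs (SE 0.26, adjusted p = 2.53e-06) and by 1.24 in oligodendrocytes (SE 0.30, adjusted p = 0.00201).

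Per kilobase of exon, which allows genes to be compared, Nrp2 led in microglia with a mean of 28.8 CPM per kb over both genotypes, ahead of Plxna4 with 9.32 and Nrp1 with 2.73, and the 7 ligands lay between 0.0273 (Sema3e) and 0.264 (Sema3f). In OPCs the ligand Sema3d led with 11.7 CPM per kb, followed by Nrp2 with 4.41, Plxna4 with 2.40 and Sema3e with 1.53. Oligodendrocytes had Plxna4 first at 3.97 CPM per kb, then Nrp2 at 3.03, Sema3d at 2.71, Sema3b at 1.90, which was 3.70 in Rag2-/- and 0.0889 in control mice, and Sema3e at 1.04. In astrocytes the 3 receptors were about level, at 1.25 for Plxna4, 1.22 for Nrp2 and 1.19 for Nrp1, and the highest ligand was Sema3d at 0.400.

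**Figure D2:**
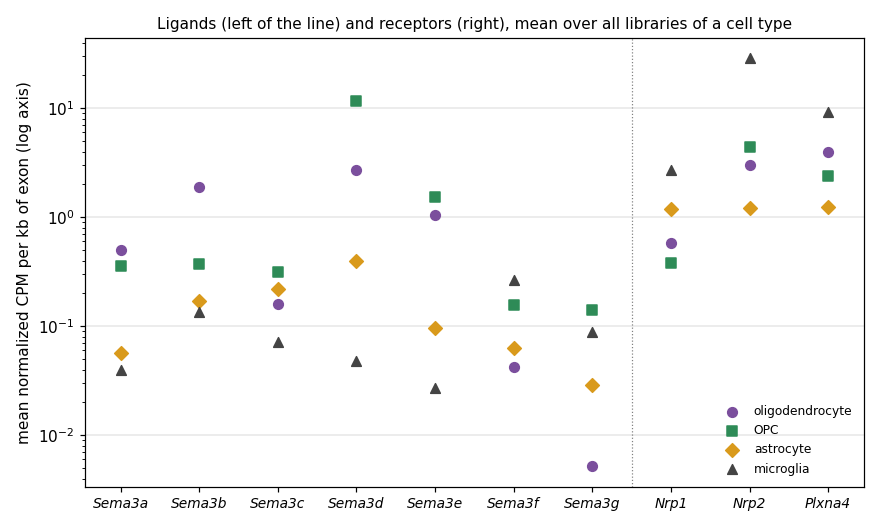
Mean normalized CPM per kb of exon (log axis) of each gene in each cell type, over the libraries of both genotypes, ligands on the left of the dotted line and receptors on the right. The 3 receptors have their highest mark in microglia (triangles), and Sema3d its highest mark in OPCs (squares) at 11.7.

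Counted over the members, 2 of 10 differed between oligodendrocytes and OPCs in control mice (Plxna4 higher, Sema3d lower), where 26.8% of all 19368 genes tested were called. The 10 include Sema3b, which was not called between control oligodendrocytes and any other cell type. Between oligodendrocytes and astrocytes 5 of 10 were called beside 37.6% of all genes, and between oligodendrocytes and microglia 6 of 10 beside 58.7%. OPCs differed from astrocytes in 7 of 10 members (31% of all genes) and from microglia in 7 of 10 (60.9%), and astrocytes from microglia in 5 of 10 (61%). In Rag2-/- mice, leaving aside Sema3b in oligodendrocytes, 2 of 8 members that passed the filter on low counts differed between oligodendrocytes and OPCs (27.8% of 19412 genes), 6 of 8 between oligodendrocytes and astrocytes (39.6%) and 7 of 8 between oligodendrocytes and microglia (59%). There, 7 of 9 differed between OPCs and astrocytes (25.6%), between OPCs and microglia (59%) and between astrocytes and microglia (60.1%). The control calls not made again were Plxna4 between oligodendrocytes and OPCs, Sema3g between OPCs and astrocytes (log2 difference 3.22 in controls and 1.71 in Rag2-/- mice) and Sema3b between OPCs and microglia (2.09 in controls and -0.36 in Rag2-/- mice). Those for Sema3g (adjusted p = 0.0404) and Sema3b (adjusted p = 0.0282) were also lost with the mouse as a block, at adjusted p = 0.103 (0.0183 to 0.103 over all alternatives) and 0.0600 (0.00476 to 0.0888). The call of Sema3g was further lost without the astrocytes of pair 1, 2, 4 or 6, the microglia of pair 4 or the oligodendrocytes of pair 5, and that of Sema3b without the microglia of pair 1, 2, 3 or 5 or the OPCs of pair 2 or 4.

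Markers of the neighbouring cell types were present in each purified library at lower levels, and these values bear on members that were low in a cell type. In oligodendrocyte libraries Sema3d had 23.2% and Sema3e 68.2% of their mean level in OPCs, while the OPC markers had a median of 14.7% (range 10.1% to 42.3%). Nrp2 in OPCs had 15.3% and Plxna4 25.8% of the microglial level, beside 3.75% to 5.39% for the 8 microglial markers there. In oligodendrocytes Plxna4 had 42.7% and Nrp1 21.2% of the microglial level, above the range of the microglial markers, and Nrp2 had 10.5%, inside that range of 5.52% to 10.7%. In astrocytes Nrp1 had 43.6% of the microglial level, beside 1.07% to 2.62% for the markers. Oligodendrocyte markers in astrocyte libraries had a median of 24.4% (range 13.2% to 33.7%) of their oligodendrocyte level. Mean Plxna4 was 18.2 CPM in astrocytes and 58.0 in oligodendrocytes, and mean Nrp2 was 14.7 and 36.4. The part of oligodendrocyte RNA in these astrocyte levels was not tested. Sema3d in astrocytes stood at 3.42% of the OPC level, beside 2.25% to 14.1% for the OPC markers. The summed level of 9 neuron markers was 53.5 to 119 CPM in microglia, 136 to 367 in astrocytes, 330.0 to 669 in OPCs and 609 to 3104 in oligodendrocytes, the same order as that of the Sema3a means, and its part in the Sema3a level was not tested.

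The oligodendrocyte library of control pair 6 stood apart in several members. It had the lowest Sema3d (3.37 CPM), Sema3e (0.459) and Nrp2 (7.65) of the 8 oligodendrocyte libraries and, among the controls, the lowest summed OPC markers (412 CPM) and microglial markers (327 CPM). It also had the highest summed neuron markers (3104 CPM). The Rag2-/- library of pair 6 had still lower OPC markers (398 CPM), with 23.35 CPM of Sema3d, 20.8 of Sema3e and 36.6 of Nrp2. Without the control library of pair 6, Sema3d in control oligodendrocytes stayed lower than in OPCs by 1.84 on the log2 scale (adjusted p = 0.0189, and at most 0.0220 over all alternatives).

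The genes whose level ran most like that of a member over the 43 libraries were taken as the 3 highest Pearson correlations of log2(CPM + 1) among 16537 genes with a mean of at least 1 CPM. For Sema3d these were Lhfpl3 (r = 0.98), Pcdh15 and Dscam (both 0.97), for Sema3e Lrrtm3 (0.95), Cntnap5b (0.94) and Sema3d itself (0.93), and for Sema3a Scn2a (0.88), Stxbp5l and Fam78b (both 0.87). Nrp2 ran with H2-D1 (0.98), Il1b (0.97) and Ets2 (0.97), Plxna4 with Rapgef5 (0.96), Ikzf1 (0.95) and Ell2 (0.95), and Nrp1 with Sirpa, Dusp1 and Stard8 (all 0.90). Sema3c had Flt1 (0.63), Ift56 and Ptprb (both 0.61), and Sema3b had Gle1 (0.65), Cmc1 and Cpne7 (both 0.60). Sema3f and Sema3g were below the minimum level. The libraries share cell type, mouse and depth, so these values describe patterns and carry no p.

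The 2 genotypes were compared within each cell type. Rag2-/- libraries also lacked nearly all counts of Iftap, so effects of lost lymphocytes and of lost Iftap cannot be told apart. Sema3b (chr9:107474872-107486456, minus strand, GRCm39) was the member with the largest genotype difference, in oligodendrocytes, and 1 library carried most of it. Control oligodendrocytes had 5, 2, 3 and 2 counts of Sema3b in pairs 1, 3, 5 and 6, which is 0.622, 0.258, 0.568 and 0.306 CPM. Rag2-/- oligodendrocytes had 562, 73, 1 and 24 counts, which is 60.2, 9.32, 0.157 and 3.36 CPM. The Rag2-/- library was the higher of the pair in pairs 1, 3 and 6 and the lower in pair 5, so the groups overlapped. The means were 0.439 ± 0.183 CPM (SD, n = 4) in controls and 18.3 ± 28.2 CPM (SD, n = 4) in Rag2-/- mice, a ratio of 41.6, and the library of pair 1 held 80.5% of the Sema3b CPM summed over all 8. Without it the Rag2-/- mean was 4.28 ± 4.65 CPM (SD, n = 3) and the ratio 9.75.

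The counts of Sema3b in oligodendrocytes lay in too few libraries to pass the filter used across genes. Fitted without that filter and with sex as a term, its log2 fold change was 4.93 (SE 1.02), given as a description without a test. It was 3.92 with the littermate pair as a block, 3.24 without the Rag2-/- library of pair 1 and 6.37 without the control of pair 5. The 2 Rag2-/- libraries with the most counts came from males (pairs 1 and 3) and the other 2 from females. The controls of pairs 1 and 3 are male as well, at 0.622 and 0.258 CPM.

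**Figure D3:**
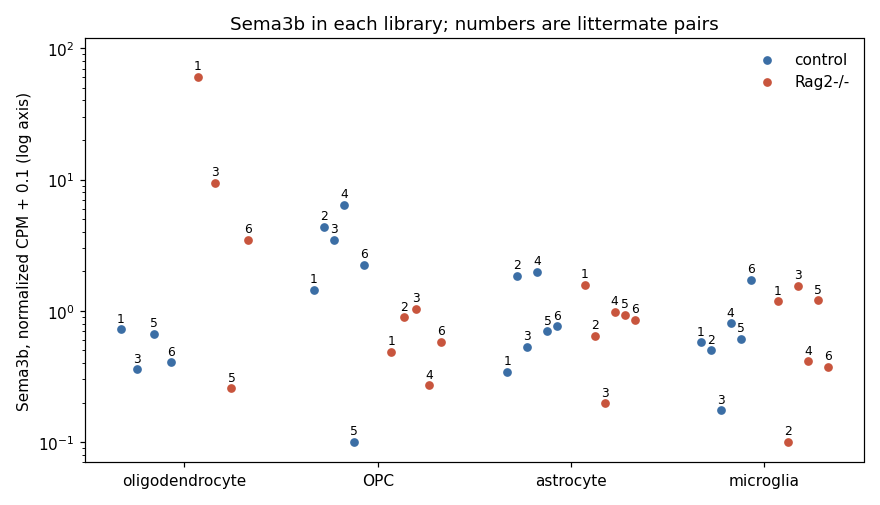
Sema3b in each of the 43 libraries as normalized CPM + 0.1 (log axis), by cell type, control in blue and Rag2-/- in red, each point numbered by its littermate pair. The Rag2-/- oligodendrocyte points of pairs 1, 3 and 6 (60.2, 9.32 and 3.36 CPM) lie above all control oligodendrocytes and that of pair 5 lies below them, and in OPCs the Rag2-/- points lie below the control points of pairs 1, 2, 3, 4 and 6.

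The high level belonged to the oligodendrocyte library of that mouse and was not seen in its other cells. The Rag2-/- mouse of pair 1 had 0.388 CPM of Sema3b in OPCs, 1.48 in astrocytes and 1.08 in microglia, all within the range of the other libraries of those cells. Summed markers of other cell types in its oligodendrocyte library lay inside the range of the other 7 libraries for every list measured, among them 2306 CPM for fibroblast and meningeal markers (others 1550.1 to 2337), 1936 for astrocytes, 1076 for OPCs and 17.5 for endothelium. Some listed genes had no count in any Rag2-/- oligodendrocyte library. These were Lum, Igf2 and Crabp2 (fibroblast and meningeal), Cldn5 and Tek (endothelial), Tagln (mural), and Ttr, Tmem212 and Aqp1 (choroid plexus and ependymal). Of these, Lum, Igf2, Ttr, Tmem212 and Aqp1 had no count in control oligodendrocytes either, while Crabp2, Cldn5, Tek and Tagln had counts there. The other way round, Kl, Folr1 and Ccdc153 (choroid plexus and ependymal) had counts in Rag2-/- oligodendrocytes and none in controls. Pdgfra counts in both the fibroblast and the OPC list, and Cspg4 in both the mural and the OPC list. The fibroblast and meningeal sum was at least 1550.1 CPM in all 8 oligodendrocyte libraries, though Lum and Igf2 had no count there. A small part of such cells therefore cannot be seen in that sum. A part of other cells in the Sema3b level was not tested. Of the neighbouring genes within 100 kb, Hyal2 (13.4 CPM, others up to 5.05) and Hyal3 (3.54 CPM), genes for hyaluronidases, were also highest in the Rag2-/- library of pair 1 among the 8. Hyal3 was 14.1 CPM in the astrocytes of the same mouse, the highest of the 12 astrocyte libraries. No counted gene shares exonic sequence with Sema3b. However, 4.48% of its exonic length overlaps Gm69497, a gene on the opposite strand that has no row in the counts.

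In OPCs the Sema3b values lay the other way round. Control OPCs had 22, 40, 44, 77, 0 and 32 counts in pairs 1 to 6, which is 1.35, 4.27, 3.36, 6.35, 0 and 2.15 CPM. Rag2-/- OPCs had 7, 12, 16, 2 and 13 counts in pairs 1, 2, 3, 4 and 6, which is 0.388, 0.792, 0.941, 0.171 and 0.480 CPM. The Rag2-/- library was the lower one in 5 of 5 pairs, and the groups overlapped only through the control of pair 5, at 0 counts, whose Rag2-/- littermate has no OPC library here. The mean was 2.91 CPM in controls and 0.554 CPM in Rag2-/- mice. The log2 fold change was -2.36 (SE 0.86, 95% confidence interval -4.18 to -0.53), with an unadjusted p of 0.0145 in edgeR's quasi-likelihood test that did not hold after adjustment over 16882 genes (adjusted p = 1.00, and 0.112 to 1.00 over the alternatives). Leaving out 1 library at a time gave -2.73 to -1.79. The difference between the contrasts in OPCs and in oligodendrocytes was not tested.

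Within the neighbourhood of Sema3b, Cyb561d2, a gene for a cytochrome b561 family protein, was 1.59 to 3.85 CPM in control OPCs and 4.54 to 6.76 CPM in Rag2-/- OPCs. These ranges did not overlap, and how often this holds over all genes was not measured. The log2 fold change of Cyb561d2 was 1.32 (SE 0.30, unadjusted p = 0.000547, adjusted p = 1.00). It is named for the lowest unadjusted p among the neighbours tested in OPCs, and others went in both directions (Tmem115 -0.48, Slc38a3 0.28).

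**Figure D4:**
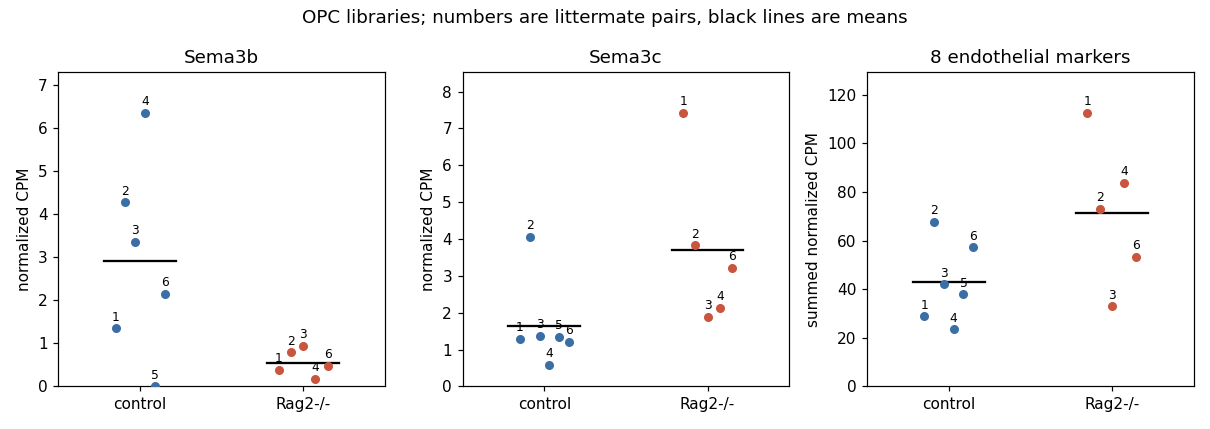
Normalized CPM of Sema3b and Sema3c and the summed normalized CPM of 8 endothelial markers in the OPC libraries (linear axes), numbered by littermate pair, with group means as black lines. Sema3b is lower in Rag2-/- than in the control in every complete pair, and Sema3c and the endothelial sum are both highest in Rag2-/- pair 1, at 7.42 and 113 CPM.

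Across all members, 0 of the 8 that passed the filter in OPCs were called between genotypes, where 0.00592% of all genes were called, and 2 had an unadjusted p under 0.05 (Sema3b and Sema3c). In astrocytes 0 of 4 were called (0.00679% of all genes) and 1 was under 0.05 unadjusted (Nrp2), and in microglia 0 of 4 were called (0.00667%) and none was under 0.05. DESeq2 on all genes also called 0 members in each of these cell types. Among all genes 0 were called by edgeR in oligodendrocytes (0%), where 467 of 13802 had an unadjusted p under 0.05, and DESeq2 called 205. Ranges of the 2 genotypes overlapped for every member in every cell type.

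Sema3c was higher in Rag2-/- OPCs in 4 of 5 pairs. Controls had 1.28, 4.06, 1.37, 0.577, 1.35 and 1.21 CPM in pairs 1 to 6 and Rag2-/- mice 7.42, 3.83, 1.88, 2.14 and 3.22 CPM in pairs 1, 2, 3, 4 and 6. All controls but that of pair 2 were below all Rag2-/- libraries. The log2 fold change was 1.26 (SE 0.51, unadjusted p = 0.0262, adjusted p = 1.00) and was 0.62 without the Rag2-/- library of pair 1. The summed level of 8 endothelial markers, none of them at 0, was higher by its median as well, with 23.5 to 67.6 CPM (median 39.9) in control OPCs and 33.0 to 113 CPM (median 73.2) in Rag2-/- OPCs. So were the medians of the astrocyte markers (2656 CPM in controls, 3993 in Rag2-/- OPCs), the oligodendrocyte markers (488 and 970) and the mural markers (659 and 726). Cspg4 counts in both the mural and the OPC list, so the mural sum of OPC libraries includes an OPC gene. Medians of the OPC, microglial, neuron, fibroblast, choroid plexus and border macrophage lists were lower in Rag2-/- OPCs. The part of any of these cells in the Sema3c difference was not tested.

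The abundant members of OPCs lay close together in both genotypes. The log2 fold change was 0.05 for Sema3d (95% confidence interval -0.32 to 0.43), -0.07 for Plxna4 (-0.40 to 0.26), -0.11 for Sema3e (-0.59 to 0.38) and -0.32 for Nrp2 (-0.73 to 0.08). For Nrp1 it was 0.60 (-0.10 to 1.29, unadjusted p = 0.0883), with 2.87, 4.17, 7.33, 2.64, 7.84 and 3.36 CPM in controls and 7.75, 7.59, 7.17, 7.70 and 5.40 CPM in Rag2-/- mice. The interval for Sema3a was wide (-0.99 to 0.97).

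In microglia the 3 receptors differed between genotypes by 0.04 for Nrp2 (95% confidence interval -0.16 to 0.24), 0.01 for Plxna4 (-0.22 to 0.24) and -0.12 for Nrp1 (-0.40 to 0.16) on the log2 scale. Sema3f was the only ligand that passed the filter there. It had 1.11, 1.60, 1.57, 0.234, 0.512 and 0.750 CPM in controls and 1.47, 4.02, 3.13, 0.470, 1.72 and 1.27 CPM in Rag2-/- microglia of pairs 1 to 6. The Rag2-/- library was the higher one in 6 of 6 pairs while the 2 ranges overlapped, and the log2 fold change was 0.98 (SE 0.54, unadjusted p = 0.0835, adjusted p = 0.999). With the littermate pair as a block it was 1.03 (adjusted p = 0.968, and 0.910 to 1.00 over the alternatives).

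In astrocytes Nrp2 was 30.6, 9.03, 20.3, 19.8, 19.3 and 8.70 CPM in controls and 15.9, 12.0, 14.6, 10.1, 7.72 and 7.94 CPM in Rag2-/- mice, lower in 5 of 6 pairs. Its log2 fold change was -0.59 (SE 0.27, unadjusted p = 0.0448, adjusted p = 1.00). Plxna4 differed by -0.07 (95% confidence interval -0.61 to 0.47), Nrp1 by -0.06 (-0.50 to 0.37) and Sema3d by 0.58 (-0.48 to 1.65). In oligodendrocytes, as a description, the fold changes other than that of Sema3b were small beside their intervals, from -0.58 for Plxna4 (-1.26 to 0.11) to 0.30 for Sema3d (-0.95 to 1.55) among the 7 members that passed the filter.

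**Figure D5:**
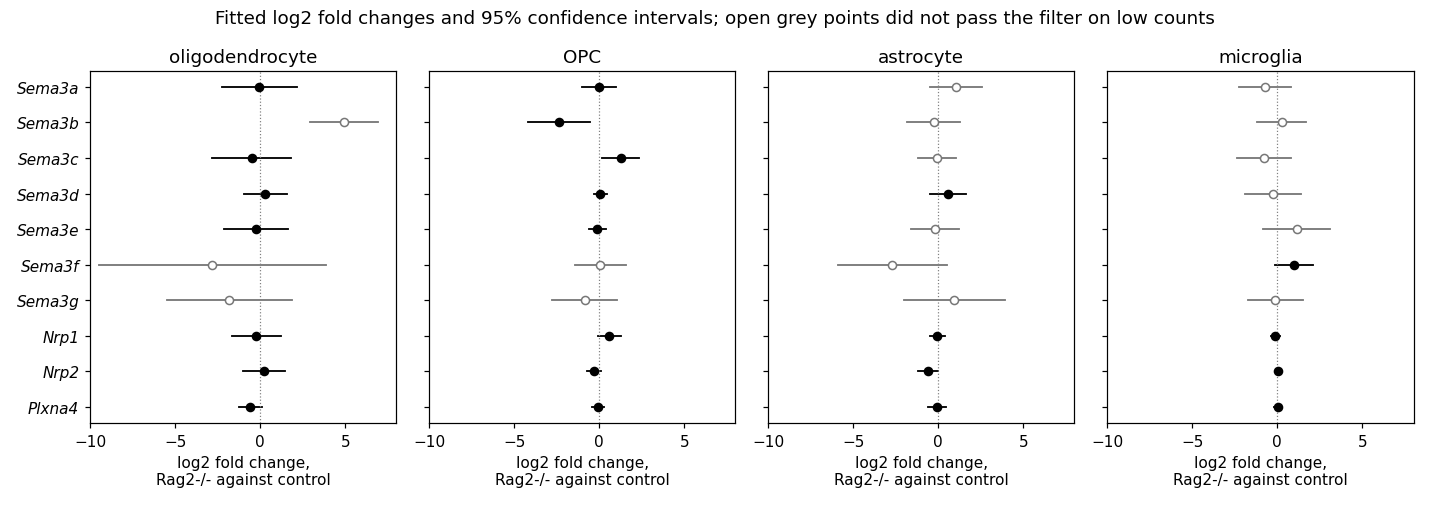
Fitted log2 fold change of Rag2-/- against control with its 95% confidence interval for each member in each cell type, filled black points for members that passed the filter on low counts and open grey points for members fitted without it. Sema3b lies at 4.93 in oligodendrocytes and at -2.36 in OPCs, and the microglial receptors lie within 0.12 of 0. Intervals in oligodendrocytes are a description and no test.

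Sex was the other term of the fits. No member was called between females and males by edgeR in microglia (0 of 4, beside 0.0467% of all genes), astrocytes (0 of 4, 0.0407%), OPCs (0 of 8, 0.0296%) or oligodendrocytes (0 of 7, 0.0362%), and DESeq2 called 0 as well. At an unadjusted p under 0.05 there were 0, 2, 0 and 1 members. Sema3d in astrocytes was lower in females by 1.74 on the log2 scale (SE 0.54, unadjusted p = 0.00473, adjusted p = 0.715), with 0.751 to 2.74 CPM in 5 females and 0.662 to 9.68 CPM in 7 males. Nrp1 was higher in females in astrocytes (0.46, SE 0.21, unadjusted p = 0.0407) and in oligodendrocytes (1.53, SE 0.68, unadjusted p = 0.0435).

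Around these genes, 60 others of the pathway were followed: 8 other plexins, 13 membrane-bound semaphorins, 10 adhesion co-receptors and VEGF partners of the neuropilins, 23 intracellular mediators and 6 proteases that process ligands. None was called between genotypes in OPCs (0 of 59 tested), astrocytes (0 of 53) or microglia (0 of 52), where 4, 5 and 3 had an unadjusted p under 0.05, and the median log2 fold changes were -0.01, 0.03 and 0.05 beside -0.01, 0.0014 and -0.01 over all genes. Between sexes 0 were called in each cell type. Cell types differed widely: in control mice 35 of the 60 were higher and 14 lower in OPCs than in microglia, with a median log2 difference of 1.07 beside 0.09 over all genes, of which 32.4% were higher and 28.4% lower, and 13 were higher and 12 lower in oligodendrocytes than in OPCs, with a median of -0.26 beside -0.14 over all genes, of which 12.5% were higher and 14.3% lower.

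Among the plexins, Plxnb2 was highest in microglia (276 ± 38.4 CPM, SD, n = 12), Plxnb1 in astrocytes (286 ± 27.9 CPM, SD, n = 12) and Plxnb3 in oligodendrocytes (167 ± 48.8 CPM, SD, n = 8). All are receptors for membrane-bound semaphorins. Plxnd1, the receptor of Sema3e, was 25.9 ± 4.22 CPM in OPCs and 25.1 ± 10.2 in oligodendrocytes, and in microglia and astrocytes it was 13.4 ± 3.05 and 13.4 ± 3.18. Of the membrane-bound ligands, Sema4d was highest in microglia (386 ± 42.6 CPM), Sema6d in astrocytes (352 ± 23.7 CPM) and Sema6a in oligodendrocytes (186 ± 43.9 CPM). By contrast, no class 3 ligand had a mean above 1.49 CPM in microglia. Nrcam, an adhesion partner of neuropilins, and Vegfa, a growth factor that also binds Nrp1, were highest in astrocytes (334 ± 28.4 and 305 ± 46.7 CPM), and Cntn2 in oligodendrocytes (361 ± 96.7 CPM). Dpysl2, the collapsin response mediator that carries Sema3a signals to the cytoskeleton, was highest in oligodendrocytes (709 ± 177 CPM), and the small GTPase Rac1 stood between 232 CPM in OPCs and 378 CPM in microglia. Arhgef12, a RhoA exchange factor, was highest in astrocytes (350.4 ± 36.0 CPM). The processing proteases Furin (129.8 ± 16.3 CPM) and Adam17 (185 ± 15.97 CPM) were highest in microglia, and Adam10 ranged from 35.7 CPM in astrocytes to 64.4 CPM in microglia.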

How the data were processed

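RNA of each immunopanned cell preparation was amplified as cDNA and sequenced as read pairs. The authors aligned the pairs with STAR 2.7.8a to GRCm39 and deposited whole-number HTSeq counts per gene. The 5 sums of pairs counted on no gene (33.5% to 52.0% of pairs) were left out.

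The members and lists were chosen with earlier results of these data known. Counts were tested in R 4.3.3 with edgeR 4.0.16 (TMM, filterByExpr at 10 counts per library and 15 in all, glmQLFit and glmQLFTest), with sex + genotype within a cell type and cell type + sex within a genotype. P-values were adjusted over all genes, with a threshold of 0.05, and measure the spread between these mice. Cell type contrasts share libraries, and the libraries of 1 mouse come from 1 suspension. Members below the filter were fitted without it. The genes named were the 10 members, the 3 genes of each pathway list with the highest mean CPM, the 3 most similar genes of each member, marker lists and genes within 100 kb of Sema3b (GENCODE M39). Plxnd1 and Iftap were added after their values were seen. Alternatives were DESeq2 1.42.0, its size factors in edgeR, other filters and scalings, blocks, no sex term, Rag2 +/- controls alone and single libraries left out. Scripts were tested on simulated data. Pairs were littermates by the labels, and deviations from group means correlated within pairs by 0.107 (oligodendrocytes), 0.125 (OPCs), 0.150 (astrocytes) and 0.107 (microglia) on average, and between pairs by -0.0350 to -0.0219.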

Additional observations from a re-analysis of the deposited data

Results flagged for a closer look

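In 13 of the 75 sets of libraries of 1 gene, cell type and genotype that were checked, the highest or lowest library lay farther from the rest than Dixon's 95% limit for its group size. That limit is passed by chance in about 1 of 20 sets of normally distributed values. It was applied to CPM without a log transform, often at low counts, so the rate by chance here is not known. Among them was Sema3b in the oligodendrocytes of the Rag2-/- mouse of pair 1, at 60.2 CPM against 0.157 to 9.32 in the other 3.

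Among the abundant members, Sema3d in oligodendrocytes was 3.37 CPM in the control of pair 6 against 26.0 to 29.7 in the other controls, and 36.8 CPM in the Rag2-/- mouse of pair 1 against 23.4 to 23.7 in the other Rag2-/- mice. Nrp1 in Rag2-/- OPCs was 5.40 CPM in pair 6 against 7.17 to 7.75.

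The remaining libraries concern low levels. Sema3c was 4.06 CPM in control OPCs of pair 2 (others 0.577 to 1.37), 7.61 in Rag2-/- astrocytes of pair 1 (others 0.109 to 1.33) and 3.44 in control microglia of pair 3 (others 0 to 0.562). Sema3f was 3.92 CPM in control OPCs of pair 5 (others 0 to 1.28), 1.77 in Rag2-/- OPCs of pair 6 (others 0.353 to 0.554) and 3.76 in control astrocytes of pair 1 (others 0 to 0.189). In microglia, Sema3d was 1.81 CPM in the control of pair 6 (others 0 to 0.512), Sema3a 1.37 in the Rag2-/- mouse of pair 1 (others 0.0688 to 0.545) and Sema3g 1.28 in the Rag2-/- mouse of pair 3 (others 0 to 0.393).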

How the results depend on the processing

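In control mice 2 members were called between oligodendrocytes and OPCs, and 4 were called with no filter, 4 with a minimum mean count of 10, 4 with DESeq2 and 5 with total counts alone. Sema3b is among the members counted in these control fits. With single libraries left out there were 2 to 5, with 4 without oligodendrocyte replicate 3 and 5 without OPC replicate 5. In Rag2-/- mice total counts alone gave 5 instead of 2. Total counts alone moved the median log2 difference of all genes between oligodendrocytes and OPCs by -1.08 in control mice and the share of calls that were higher from 46.7% to 6.29%, with 10934 genes called instead of 5194. Plxna4 went to -0.15 with that shift of all genes. In Rag2-/- mice 10891 genes were called instead of 5402. The call of Sema3g between OPCs and astrocytes was lost with DESeq2 (adjusted p = 0.0537, 0.0183 to 0.103 over its alternatives). With the mouse as a replicate block no call of a single member was lost other than those of Sema3g and Sema3b.

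With the littermate pair as a replicate block no member was called between genotypes, and fold changes near 0 turned sign for Plxna4 (0.081) and Sema3e (0.00388) in OPCs and Nrp1 in astrocytes (0.00894). Nrp1 also turned in astrocytes without the sex term (0.030) and with Rag2 +/- controls alone (0.056), and in microglia with Rag2 +/- controls alone (0.025). Sema3b in oligodendrocytes ranged from 3.24 to 6.37 with single libraries left out. Ranges that crossed 0 were -0.38 to 0.35 for Sema3a, -0.15 to 0.071 for Plxna4, -0.040 to 0.16 for Sema3d and -0.21 to 0.087 for Sema3e in OPCs, -0.15 to 0.085 for Nrp1 and -0.21 to 0.049 for Plxna4 in astrocytes, and -0.034 to 0.079 for Plxna4 in microglia. The cause was not tested in any of these cases. Over all genes, calls between genotypes went from 0 to 14 with no filter and 205 with DESeq2 in oligodendrocytes, from 1 to 90 and 5 in OPCs, from 1 to 30 with no filter in astrocytes and from 1 to 9 and 3 in microglia. Calls between sexes went from 5 to 99 and 432, from 5 to 72 and 13, from 6 to 118 and 19, and from 7 to 25 and 11 in the same order.

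Ligands at a few counts per library are limited by depth: a difference there was not detectable unless it was large beside the spread of 4 to 6 mice a group.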
